A study of Mus musculus with 20 samples.

Results

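The genes described here are 34 members of the unfolded protein response and the chaperone system of the endoplasmic reticulum (ER), followed across mouse breast tumours that are sensitive or resistant to olaparib. Olaparib is an inhibitor of the DNA repair enzyme PARP. Members were taken by gene symbol from a list drawn up with earlier results of these data known, and all 34 were found among the 16411 genes of the expression table and were tested. Poly(A) RNA was sequenced from breast tumours carried as allografts in mice. The 3 lines were the PARP inhibitor-sensitive MDA594 and the resistant MDA594OR1 and MDA594OR2 (OR1 and OR2 from here on). Each was grown as control tumours or with olaparib. The controls are called untreated here, and the header of the expression table lists those of MDA594 as vehicle. The study aimed at how resistance to olaparib arises.

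The groups were untreated MDA594 (4 libraries), olaparib-treated MDA594 (3), untreated OR1 (3), olaparib-treated OR1 (4), untreated OR2 (2) and olaparib-treated OR2 (3). The genotype and strain of tumours and hosts, the age of the hosts and a dose of olaparib with its unit are not stated in the labels used here. Titles of treated libraries carry a number after the short name of the drug, with no unit. OR1 and OR2 are single lines, so a difference between a line and MDA594 is a difference between those tumours. Several libraries carry the same last code in their titles, which was taken as 1 host mouse. The 19 libraries had 14 such codes, and both untreated OR2 libraries had the same one. A further MDA594 library entered no comparison: its title and the header of the expression table place it with the untreated tumours, and its treatment label calls it treated. If it was untreated, several of the separations between treated and untreated MDA594 given below would not hold, as stated beside them. Expression is given as log2 CPM, counts per M reads, and all changes below are differences on that log2 scale. Libraries held 36.8 to 118 M reads over the genes of the expression table. The member with the fewest reads, Chac1, had at least 32 reads in each library, and Hspa5 had at least 41801.

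In the unfolded protein response, 3 sensors in the ER membrane report unfolded proteins to the nucleus. IRE1, the product of Ern1, splices Xbp1 mRNA so that it codes for an active transcription factor. PERK, the product of Eif2ak3, slows translation and favours translation of Atf4. ATF6 is cut to release a transcription factor. Between them they raise chaperones, disulfide isomerases and the machinery that removes misfolded proteins from the ER (ER-associated degradation, ERAD). Prolonged PERK signalling also raises Ddit3, which codes for the pro-apoptotic factor CHOP. Splicing of Xbp1 and cleavage of ATF6 cannot be read from gene-level values.

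Textbook binding sequences for these factors lie in the promoters of several members. The promoters shown here are those of genes named in the results and hold at least 1 match to a sequence searched. The ER stress response element (ERSE: CCAAT, any 9 bases, CCACG) and ERSE-II (ATTGG, any 1 base, CCACG) are known as sites of ATF6 and XBP1. The C/EBP-ATF response element (CARE: TGATGNAA) is known as a site of ATF4. Both strands were searched in 300 bases per gene, from 250 before to 50 after the start, in RefSeq's promoter windows on GRCm38.p6. The windows are Creld2, chr15:88819396-88819695 on the + strand; Hspa5, chr2:34771840-34772139 on the + strand; Hsp90b1, chr10:86705395-86705694 on the - strand; and Dnajb11, chr16:22857595-22857894 on the + strand. Herpud1 is at chr8:94386179-94386478 on the + strand, Trib3 at chr2:152344011-152344310 on the - strand and Chac1 at chr2:119350992-119351291 on the + strand. Sequences read 5′ to 3′ along the gene's strand, and capitals mark the matched bases, ERSE in Creld2, Hspa5 and Hsp90b1, ERSE-II in Dnajb11, CARE and then ERSE-II in Herpud1, and CARE in Trib3 and Chac1.
Creld2: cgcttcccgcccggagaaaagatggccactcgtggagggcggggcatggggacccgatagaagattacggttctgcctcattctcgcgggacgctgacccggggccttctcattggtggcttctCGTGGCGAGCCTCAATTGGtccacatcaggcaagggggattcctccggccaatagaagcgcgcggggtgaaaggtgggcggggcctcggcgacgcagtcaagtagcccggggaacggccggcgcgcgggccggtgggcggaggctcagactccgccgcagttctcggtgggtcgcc
Hspa5: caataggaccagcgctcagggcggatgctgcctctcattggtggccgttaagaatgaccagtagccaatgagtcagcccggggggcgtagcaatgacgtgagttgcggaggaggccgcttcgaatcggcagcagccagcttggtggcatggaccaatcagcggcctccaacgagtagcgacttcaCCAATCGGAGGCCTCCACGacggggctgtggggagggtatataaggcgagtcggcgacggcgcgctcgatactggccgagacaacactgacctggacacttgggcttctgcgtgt
Hsp90b1: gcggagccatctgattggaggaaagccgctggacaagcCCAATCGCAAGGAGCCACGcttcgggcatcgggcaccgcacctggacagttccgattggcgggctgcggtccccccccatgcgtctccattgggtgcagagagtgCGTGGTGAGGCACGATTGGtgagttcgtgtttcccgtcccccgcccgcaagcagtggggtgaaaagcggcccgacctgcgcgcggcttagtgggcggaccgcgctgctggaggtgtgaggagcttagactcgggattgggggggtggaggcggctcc
Dnajb11: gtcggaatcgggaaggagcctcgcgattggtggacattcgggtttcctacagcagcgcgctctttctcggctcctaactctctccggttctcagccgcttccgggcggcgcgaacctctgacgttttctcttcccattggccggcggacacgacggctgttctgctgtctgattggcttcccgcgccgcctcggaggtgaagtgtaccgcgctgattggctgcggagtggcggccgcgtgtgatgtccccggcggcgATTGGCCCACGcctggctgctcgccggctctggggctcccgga
Herpud1: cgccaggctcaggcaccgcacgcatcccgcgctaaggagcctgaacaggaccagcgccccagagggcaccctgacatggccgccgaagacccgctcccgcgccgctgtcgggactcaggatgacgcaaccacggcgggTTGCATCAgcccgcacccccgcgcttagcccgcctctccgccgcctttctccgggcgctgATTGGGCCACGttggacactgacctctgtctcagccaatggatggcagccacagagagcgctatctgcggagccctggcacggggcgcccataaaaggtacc
Trib3: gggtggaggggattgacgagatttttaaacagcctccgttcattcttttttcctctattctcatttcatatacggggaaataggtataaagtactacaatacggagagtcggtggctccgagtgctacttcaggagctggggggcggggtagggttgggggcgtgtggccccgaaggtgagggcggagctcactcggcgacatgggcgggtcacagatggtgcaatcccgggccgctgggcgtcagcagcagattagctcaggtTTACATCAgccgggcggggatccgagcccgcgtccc
Chac1: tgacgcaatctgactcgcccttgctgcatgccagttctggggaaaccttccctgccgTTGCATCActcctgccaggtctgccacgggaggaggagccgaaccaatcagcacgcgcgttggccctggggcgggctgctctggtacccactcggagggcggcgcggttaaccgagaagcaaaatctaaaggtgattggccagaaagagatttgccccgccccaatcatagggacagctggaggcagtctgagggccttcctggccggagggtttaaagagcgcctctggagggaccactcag

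A window was at hand for 30 of the 34 members, all but Derl1, Hyou1, Atf6 and Manf. ERSE was found in 39 of 32851 windows of all genes (0.119%) and in those of 8 members, namely Calr, Canx, Creld2, Dnajc3, Hsp90b1, Hspa5, Pdia6 and Syvn1. ERSE-II was in 12 windows (0.0365%), among them Dnajb11 and Herpud1. CARE was in 1304 windows (3.97%), among them Asns, Atf3, Chac1, Herpud1 and Trib3. A match is a description of the letters in the window and does not show that a factor binds there.

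The libraries were first looked at for other cell types, since a tumour sample holds host cells. Epithelial genes were present in each library, with at least 20981 reads of Epcam, while Krt14 ranged from 0 to 261 reads and Krt5 and Krt19 were not among the genes analysed here. The third treated MDA594 library stood apart in 12 skeletal muscle genes, with a mean log2 CPM of 6.28, where the other treated MDA594 libraries had -4.44 and -3.95. Plasma cells make much ER chaperone, so their genes were listed too. Of 12 plasma cell and B cell genes, 4 were in the table, and the other 8 were not analysed here. Irf4 had 0 to 133 reads, Jchain 10 to 1357, Prdm1 119 to 677 and Sdc1 1943 to 9269. In bulk samples, fewer cells of a type and less RNA per cell cannot be told apart.

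In the sensitive tumour MDA594, 1 member, Creld2, rose with olaparib, while the ER chaperones had positive changes that did not pass the adjusted test. Creld2 codes for a disulfide isomerase-like ER protein that is secreted under ER stress. The change was positive for 27 of the 34 members, with a median of 0.33, against 50.9% positive and a median of 0.01 over all 16330 genes tested. For 16 members, all treated libraries lay above all untreated ones (background 12.7% of genes), and for 0 they lay below (background 12.2%). The 3 treated libraries carry 2 host codes and the 4 untreated ones 3, so these separations rest on few hosts. The library with conflicting labels was at or above the lowest treated library for 14 of those 16, all but Atf3 and Sesn2. By limma with a Benjamini-Hochberg adjusted p under 0.05 over all genes, 1 of 34 members was called, where 0.122% of all genes were. At an unadjusted p under 0.05 there were 12 members higher and 1 lower, where 16.8% of all genes passed in either direction.

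Creld2 (ENSMUSG00000023272.5) read 4.99, 4.73, 5.17 and 5.02 in untreated MDA594 and 5.88, 5.78 and 6.11 in treated MDA594. The groups did not overlap. The fitted change was 0.99 ± 0.18 (SE; 1.98-fold, adjusted p = 0.0495 by limma). In untreated OR1 it read 4.80, 5.30 and 4.95, and in treated OR1 4.99, 4.83, 5.04 and 5.31. In untreated OR2 it read 5.19 and 4.93, and in treated OR2 5.33, 5.23 and 5.43. All 3 treated MDA594 libraries lay above each of the other 16 libraries that have a group. The library with conflicting labels read 5.91, within the treated range, so the groups would overlap if it was untreated, and the fit was not run with it. The call on Creld2 sits at the threshold: it was kept in 5 of the 19 fits that leave out a library, with changes of 0.87 to 1.04, and the smallest change came without the third treated MDA594 library (adjusted p = 0.327). Without both untreated MDA594 libraries of the shared host code, the change was 1.07 (adjusted p = 0.0778), a setting chosen after the data were seen.

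The 7 HSP70, HSP90 and DNAJ chaperones of the ER had changes of 0.29 to 0.86, with a median of 0.67, and 6 of the 7 had groups that did not overlap. 0 of them passed the adjusted test by limma, and 6 had an unadjusted p under 0.05. Hspa5 (ENSMUSG00000026864.14) codes for BiP, the HSP70 of the ER that also holds the sensors inactive. It read 10.19, 9.92, 10.41 and 10.41 in untreated and 10.87, 10.74 and 10.97 in treated MDA594 (0.67 ± 0.21, SE, adjusted p = 0.137). Each treated library was above each untreated one.

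Dnajb11 (ENSMUSG00000004460.18), a J-protein partner of BiP, read 6.41, 6.33, 6.70 and 6.55 in untreated and 7.17, 6.96 and 7.27 in treated MDA594 (0.67 ± 0.15, SE, adjusted p = 0.0829). Hyou1 (ENSMUSG00000032115.15) codes for GRP170, a large HSP70-like protein that exchanges the nucleotide of BiP. It read 8.38, 8.23, 8.21 and 8.21 in untreated and 8.99, 8.90 and 9.16 in treated MDA594 (0.76 ± 0.20, SE, adjusted p = 0.105). Neither gene's groups overlapped. Sdf2l1 (ENSMUSG00000022769.10), which works with the J-proteins of the ER, read 4.39, 3.93, 4.04 and 4.01 in untreated and 5.0, 4.83 and 5.04 in treated MDA594 (0.86 ± 0.23, SE, adjusted p = 0.105). Dnajb9, the J-protein that restrains IRE1, had a change of 0.59, and Hsp90b1, the HSP90 of the ER known as GRP94, one of 0.53. Dnajc3, which codes for the co-chaperone P58IPK, was the chaperone whose groups overlapped, at 0.29.

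**Figure D1:**
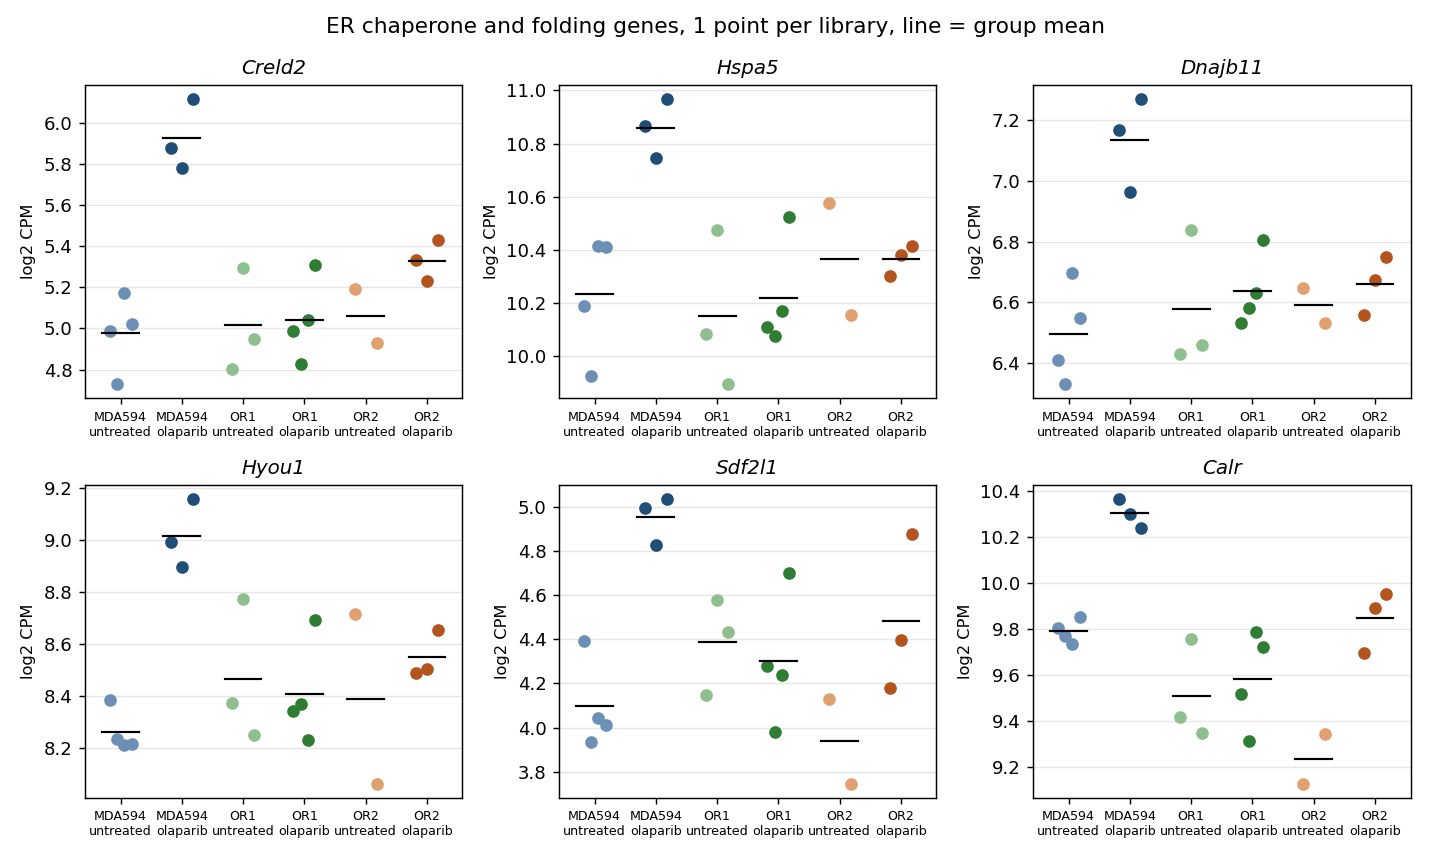
Log2 CPM of 6 members, Creld2, Hspa5, Dnajb11, Hyou1, Sdf2l1 and Calr, by group; each point is a library and each bar is the mean of a group. The 3 treated MDA594 libraries of Creld2 sit at 5.78 to 6.11, above each untreated MDA594 library, whose highest is 5.17.

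Manf, a secreted ER stress protein, read 6.69, 6.43, 7.07 and 7.14 in untreated and 7.41, 7.62 and 7.51 in treated MDA594 (0.73 ± 0.21, SE, adjusted p = 0.121 by limma). The lectin chaperones Calr and Canx, which hold glycoproteins during folding, had changes of 0.51 and 0.41. Calr read 9.80, 9.77, 9.73 and 9.85 in untreated and 10.37, 10.30 and 10.24 in treated MDA594. Of the 4 disulfide isomerases, which form and rearrange disulfide bonds, Pdia3, Pdia4 and Pdia6 had changes of 0.37, 0.37 and 0.39 with groups that did not overlap, and P4hb had 0.18 with groups that did. For 9 members, Hspa5, Hsp90b1, Hyou1, Dnajb11, Calr, Canx, Pdia3, Creld2 and Manf, each treated MDA594 library was above each of the other 16 libraries that have a group. That is 26.5% of members, where the background is 2.31% of all genes tested. The library with conflicting labels is not among those 16, and it was at or above the lowest treated MDA594 library for all 9. The 9 were picked out after the values were seen, and the treated MDA594 libraries carry 2 host codes.

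**Figure D2:**
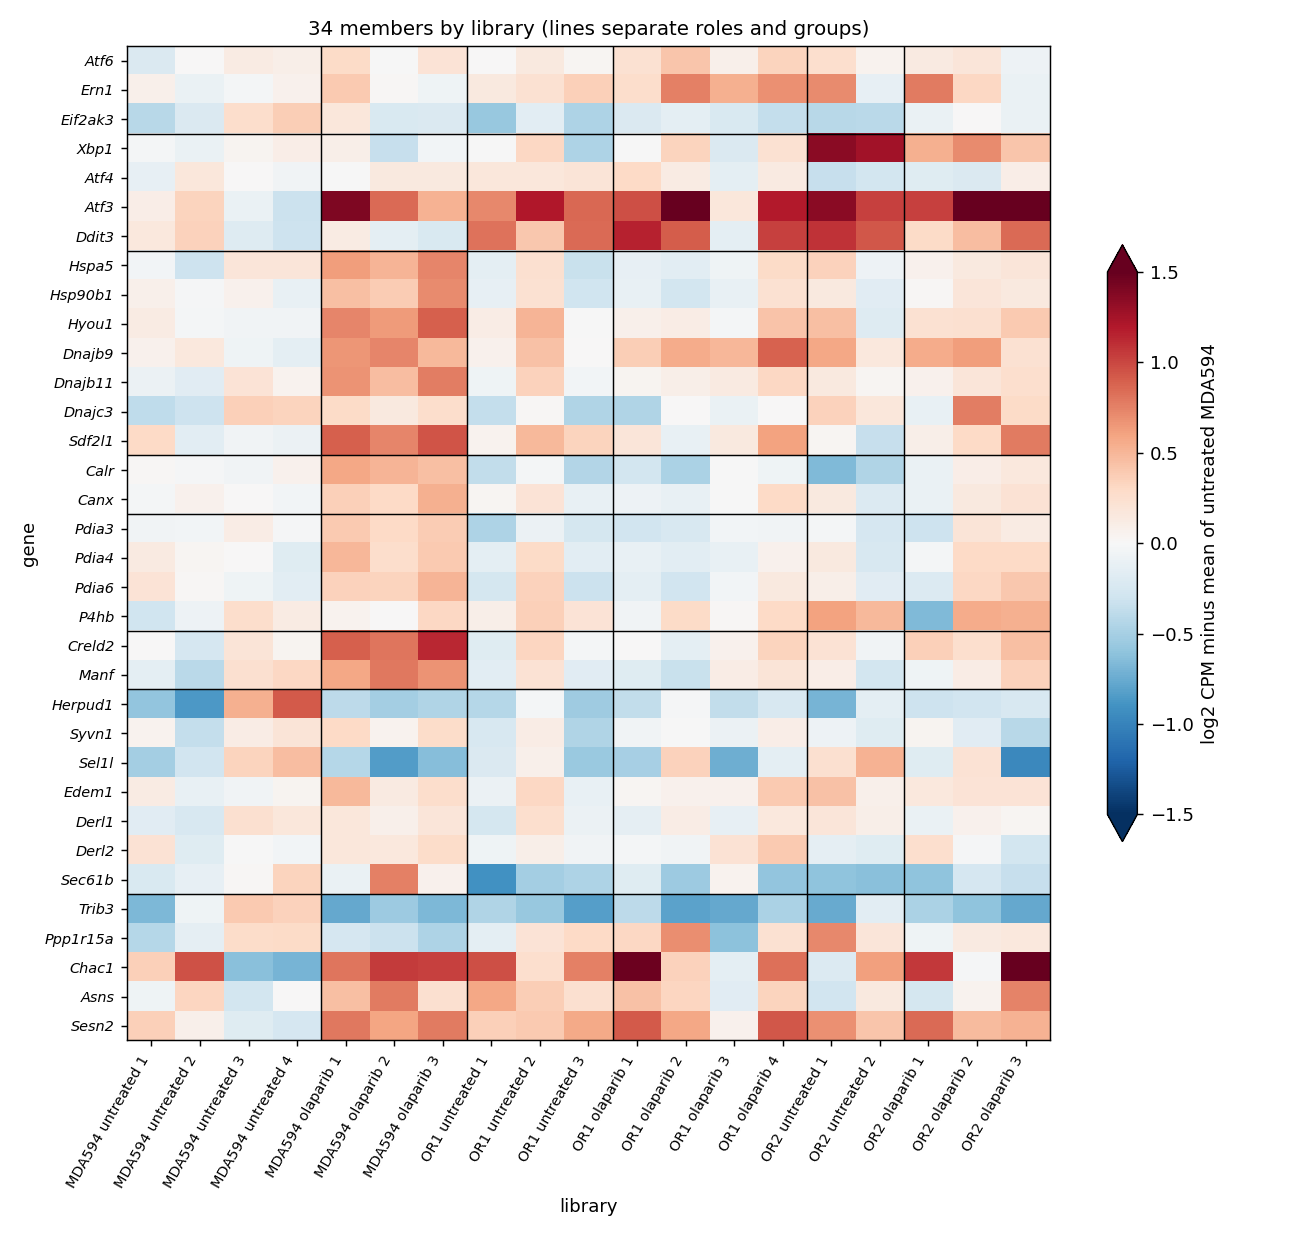
Log2 CPM of the 34 members in 19 libraries, each less the gene's mean in untreated MDA594; rows are genes ordered by role and columns are libraries by group. The chaperone rows are higher in the treated MDA594 columns, and the last 2 untreated MDA594 columns are higher than the first 2 in Herpud1, Sel1l and Trib3.

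The 7 changes of the ERAD and translocation genes had a median of 0.20 and ran from -0.57 to 0.29, and 0 passed the test by limma, adjusted or unadjusted. Edem1, a lectin that hands misfolded glycoproteins to ERAD, had a change of 0.29 and groups that did not overlap. Syvn1, the ubiquitin ligase HRD1, had 0.24, Derl2 0.20, Derl1 0.18 and Sec61b, a subunit of the translocon, 0.25. Herpud1 and Sel1l, both parts of the HRD1 complex, had -0.33 and -0.57.

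In Herpud1 and Sel1l the first 2 untreated MDA594 libraries, of different host codes, lay apart from libraries 3 and 4, which share a host code, a number in the title and a series of library names. These cannot be told apart. Herpud1 (ENSMUSG00000031770.17) read 5.26 and 4.98 in the first 2 untreated libraries and 6.38 and 6.77 in libraries 3 and 4, against 5.45, 5.33 and 5.39 in treated MDA594. Sel1l read 7.71 and 7.94 in the first 2 and 8.55 and 8.68 in the other pair, against 7.78, 7.38 and 7.58 with treatment. The treated libraries thus lay close to the first pair and below the second. Eif2ak3 and Dnajc3 showed the same split, with 6.81 and 6.92 against 6.13 and 6.33 for Eif2ak3, and 6.62 and 6.59 against 5.88 and 5.95 for Dnajc3.

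The sensors and transcription factors had smaller changes than the chaperones, apart from Atf3. The changes were 0.18 for Atf6, 0.10 for Ern1 and -0.05 for Eif2ak3, and 0 of the 3 passed the test by limma, adjusted or unadjusted. Xbp1 (ENSMUSG00000020484.20) read 7.12, 7.06, 7.19 and 7.25 in untreated and 7.24, 6.81 and 7.11 in treated MDA594, and the groups overlapped (-0.08 ± 0.21, SE). Atf4 read 7.18, 7.47, 7.30 and 7.25 in untreated and 7.29, 7.45 and 7.44 in treated MDA594, again with overlap (0.10). Atf3, a stress-induced factor downstream of ATF4, read 2.63, 2.86, 2.43 and 2.20 in untreated and 3.93, 3.37 and 3.05 in treated MDA594, with no overlap and a change of 0.84. Ddit3 read 3.06, 3.25, 2.71 and 2.60 in untreated and 3.03, 2.75 and 2.68 in treated MDA594 (-0.14), and this sign turned in the alternatives that use the title number or the larger library series.

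The 5 outputs of ATF4 and CHOP went in both directions, from -0.60 to 0.85, with a median of 0.44. Sesn2, a stress-induced regulator of growth signalling, had 0.69 (± 0.25, SE, adjusted p = 0.171 by limma) with no overlap. Asns, which makes asparagine, had 0.44, and Chac1, which degrades glutathione, 0.85, both with overlap. Ppp1r15a codes for GADD34, which brings translation back, and had -0.31. Trib3 (ENSMUSG00000032715.10), a pseudokinase that restrains ATF4, read 5.85, 6.47, 6.92 and 6.87 in untreated and 5.76, 5.98 and 5.85 in treated MDA594 (-0.60 ± 0.24, SE, adjusted p = 0.217). Its 2 highest untreated libraries were again those of the shared host code. Without them the change was -0.30 (adjusted p = 0.549), while without untreated library 1 it was -0.86 (adjusted p = 0.0386). With the number in the titles as a term it was -1.03 (adjusted p = 0.00672 by limma), and in the larger series of library names -1.03 (adjusted p = 0.00109). In that series the pair of the shared host code was all that remained of untreated MDA594. The title number shared by untreated and treated MDA594 was also that of this pair. Both fits estimated a negative correlation between libraries of a host code, so their p-values may be too small.

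**Figure D3:**
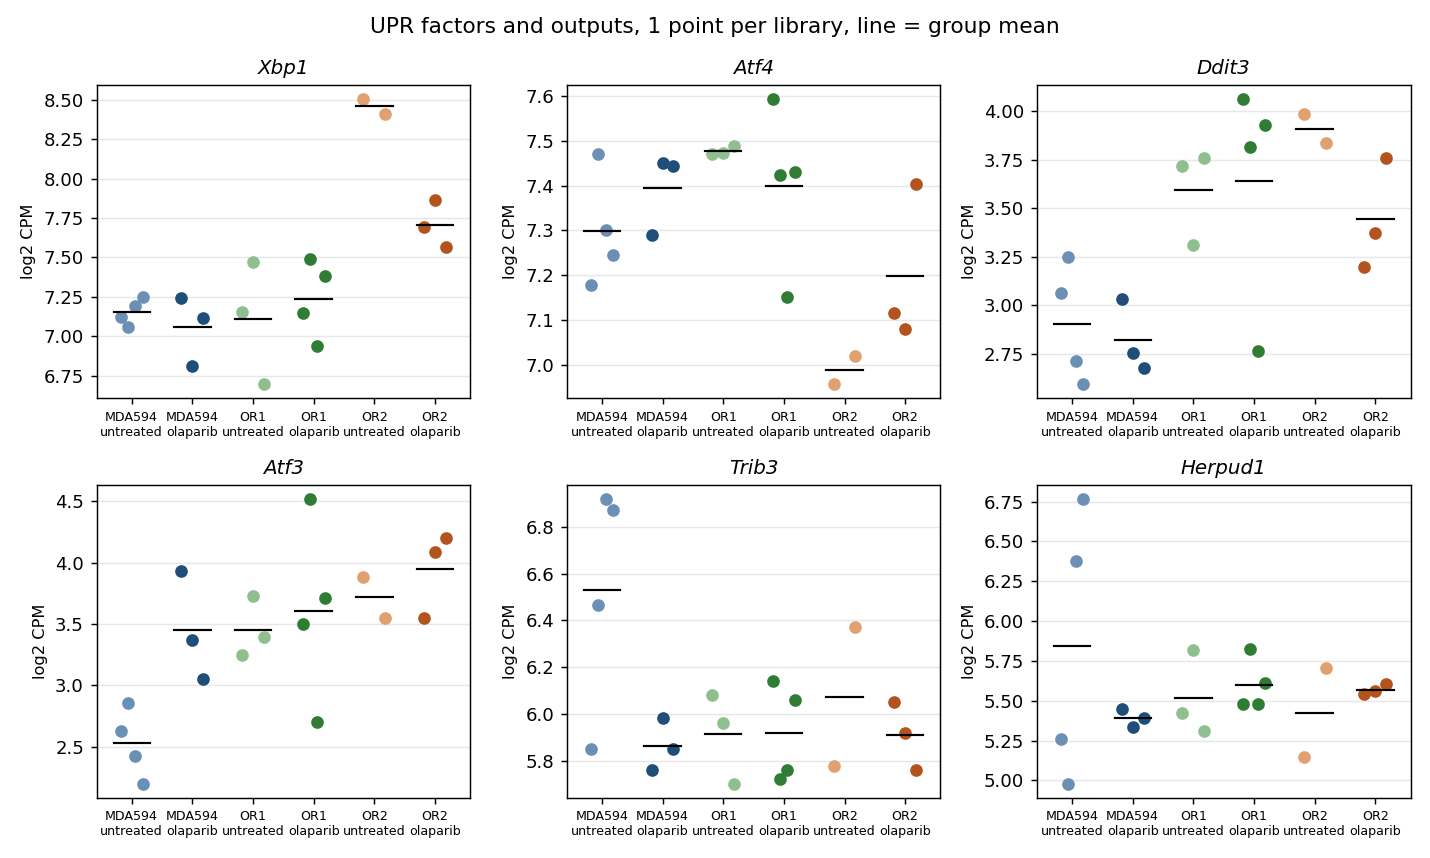
Log2 CPM of Xbp1, Atf4, Ddit3, Atf3, Trib3 and Herpud1 by group; each point is a library and each bar is the mean of a group. Xbp1 is at 8.50 and 8.41 in untreated OR2. Herpud1 is split within untreated MDA594, and Trib3 runs from 5.85 to 6.92 there.

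Within the larger of the 2 series of library names, 5 untreated and treated MDA594 libraries remained, and the untreated ones were the pair of the shared host code. In that series 15 members were called higher and 4 lower, with 0.80 for Creld2 (adjusted p = 0.00296 by limma), where 5220 genes of the table were called. The estimated correlation between libraries of a host code was -0.30 there, and it was negative too with the number in the titles as a term. A negative value treats the mean of libraries of 1 host code as more precise than that of independent libraries. The p-values of both fits may thus be too small. With the series as a term in the model, Creld2 had 0.94 (adjusted p = 0.0427 by limma), and with the number in the titles as a term 0.73 (adjusted p = 0.0196). The call on Creld2 was lost with libraries of a host code averaged (1.03, adjusted p = 0.0833 by limma) and with the groups compared alone (1.01, adjusted p = 0.192). It was also lost with no mean trend (adjusted p = 0.0658), robust moderation (adjusted p = 0.0531) and voom (adjusted p = 0.0559).

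By promoter, the 10 members with ERSE or ERSE-II had a median change of 0.46, with 9 positive and 7 whose groups did not overlap. The 20 members with a window and neither sequence had a median of 0.23, with 14 positive and 7 whose groups did not overlap. Of the other genes with ERSE or ERSE-II, 18 were tested, with a median of -0.06, 8 positive and 0 called by limma. Their groups did not overlap for 1 gene that was higher and 4 that were lower. Of all 11257 tested genes with a window, 1595 were higher without overlap and 1304 lower, and the median change was 0.04. The 5 members with CARE had changes of -0.60 to 0.85, with 3 positive, and the 311 other genes with CARE that were tested had a median of 0.06.

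**Figure D4:**
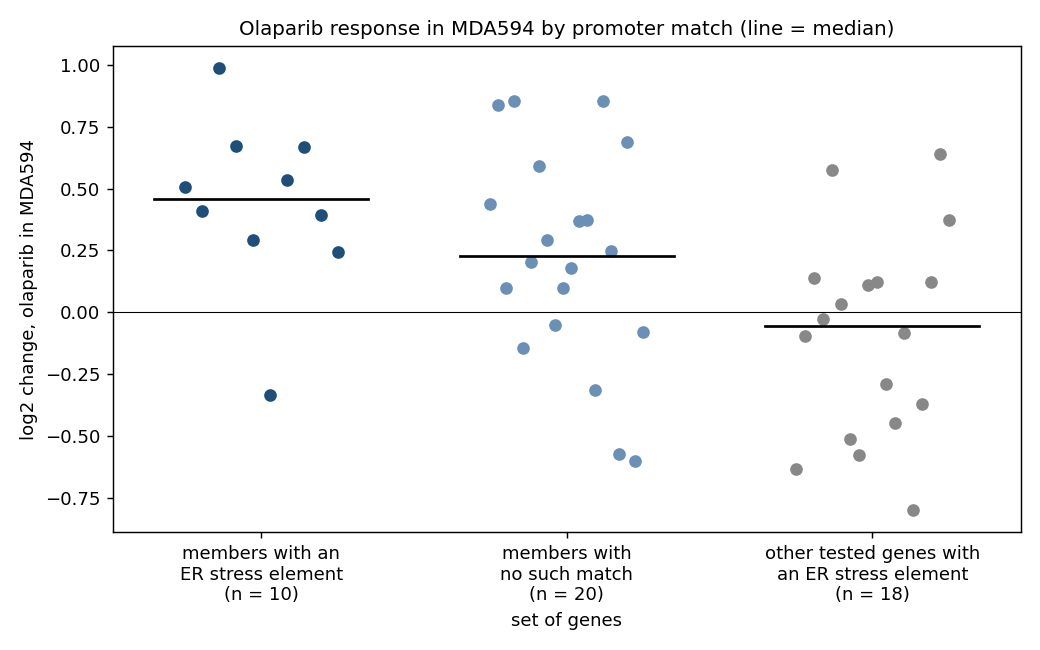
Fitted log2 change with olaparib in MDA594 for members with ERSE or ERSE-II (10), members with a window and neither (20) and other tested genes with ERSE or ERSE-II (18); each point is a gene and each bar a median. The medians are 0.46, 0.23 and -0.06.

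Most genes of the wider pathway had a positive change too. Of 85 further genes of ER folding, ERAD, stress signalling and ATF4 output, 80 were tested, 58 had a positive change and the median was 0.13. Over all genes tested, 50.9% had a positive change. By limma 0 of the 80 were called, where 0.122% of all genes were. At an unadjusted p under 0.05, 11 of the 80 were higher and 7 lower, where 16.8% of all genes passed in either direction. Among 17 further folding and redox genes, 15 had a positive change (median 0.19). Pdia5 and Erp29, both of the disulfide isomerase family, had 0.48 and 0.41. Ero1a, the oxidase that recharges disulfide isomerases and that is also known to respond to hypoxia, had the lowest value, -1.29 (± 0.43, SE, adjusted p = 0.150 by limma). Among 22 further ATF4 targets, Slc7a11, the cystine importer, had 1.11 and Pck2, the mitochondrial PEPCK, -0.63 (± 0.16, SE, adjusted p = 0.105). Of 22 heat shock genes of the cytosol and mitochondria, 17 had a positive change, with a median of 0.26 and values of 0.64 for Hsp90aa1, 0.62 for Stip1 and 1.33 for Hsph1. Their mean log2 CPM ran from 6.33 to 6.91 in untreated and from 6.72 to 6.89 in treated libraries. Untreated library 2, at 6.91, was above every treated library. By limma 0 of these 22 were called, and 3 were higher at an unadjusted p under 0.05, against the same 16.8% of all genes.

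Markers of host cells also differed between the MDA594 groups. All 12 macrophage genes had a positive change with olaparib in MDA594 (median 1.44, 0 called, 9 with no overlap), and their mean log2 CPM ran from 4.24 to 4.81 in untreated and from 5.39 to 6.13 in treated libraries. In OR1, all 12 had a positive change too, with a median of 1.32. Their mean log2 CPM ran from 3.06 to 3.64 in untreated and from 4.09 to 5.39 in treated OR1. Also in OR1, all 10 T cell genes (median 1.32) and all 11 fibroblast genes (median 0.82) had a positive change, and all 12 skeletal muscle genes a negative one (median -2.49). All 10 T cell genes (median 1.63; -2.18 to 1.57 untreated, 0.93 to 1.87 treated) and all 11 fibroblast genes (median 0.90; 3.88 to 5.35 untreated, 4.83 to 6.28 treated) had positive changes in MDA594. All 12 skeletal muscle genes did as well (median 4.18; -4.43 to -3.68 untreated, -4.44 to 6.28 treated), carried by the third treated library. Of 18 genes of hypoxia and glycolysis, 2 had a positive change (median -0.51; 6.89 to 7.40 untreated, 6.45 to 6.62 treated). Of the 4 plasma cell and B cell genes tested, 3 had a positive change (median 0.48; -0.27 to 3.39 untreated, 1.59 to 1.95 treated). The part of these cells in the chaperone values was not tested.

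In the resistant tumour OR1, 28 of the 34 members had a positive change, but the changes were small, with a median of 0.08 (all genes -0.01, 48.1% positive). By limma 0 members were called, where 0% of all genes were, and 1 member passed an unadjusted p of 0.05, where 5.87% of all genes did. For 0 members were the groups without overlap (background 7.43% higher, 7.81% lower). That 1 member was Dnajb9, which read 3.94, 4.31 and 3.88 in untreated and 4.24, 4.43, 4.37 and 4.75 in treated OR1 (0.43 ± 0.19, SE, adjusted p = 0.818). Hspa5 read 10.08, 10.47 and 9.90 in untreated and 10.11, 10.07, 10.17 and 10.52 in treated OR1 (0.11, 95% interval -0.33 to 0.56). Dnajb11 had 0.08, Hyou1 -0.01, Sdf2l1 -0.06 and Creld2 0.05 (95% interval -0.33 to 0.43). The 7 chaperones had a median of 0.08. The count of positive members was 18 without treated OR1 library 4.

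In OR2, 24 members had a positive change, with a median of 0.12 (49.8% of all genes positive). 0 members were called by limma, where 0% of all genes were, and at an unadjusted p under 0.05 there was 1 member higher and 1 lower, where 6.64% of all genes passed. For 5 members the treated libraries lay above the untreated ones and for 5 below (background 10.5% and 10.6%). The member lower at an unadjusted p was Xbp1, at 8.50 and 8.41 in untreated and 7.69, 7.86 and 7.57 in treated OR2 (-0.75 ± 0.25, SE, adjusted p = 0.558). The one higher was Calr, at 9.13 and 9.34 in untreated and 9.69, 9.89 and 9.95 in treated OR2 (0.61 ± 0.22, SE, adjusted p = 0.630). Sdf2l1 read 4.13 and 3.75 in untreated and 4.18, 4.40 and 4.88 in treated OR2 (0.55), and Hspa5 10.58 and 10.15 in untreated and 10.30, 10.38 and 10.41 in treated OR2 (0.0006). Creld2 ran from 4.93 to 5.19 in untreated and from 5.23 to 5.43 in treated OR2, without overlap (0.27). All 7 chaperones had a positive change, with a median of 0.10. Both untreated libraries carry 1 host code. Without the second of them, 17 members had a positive change and the median was -0.01. Beside these values, 17 of 18 genes of hypoxia and glycolysis had a negative change (median -0.58; 7.54 to 7.93 untreated, 6.94 to 7.13 treated), as did 4 of 5 milk secretion genes (median -1.36; 3.62 to 5.33 untreated, 1.19 to 3.35 treated) and 11 of 12 skeletal muscle genes (median -1.72). All 10 T cell genes had a positive change (median 1.84; -2.75 to -1.68 untreated, -1.63 to 1.48 treated). Their part in the values was not tested.

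**Figure D5:**
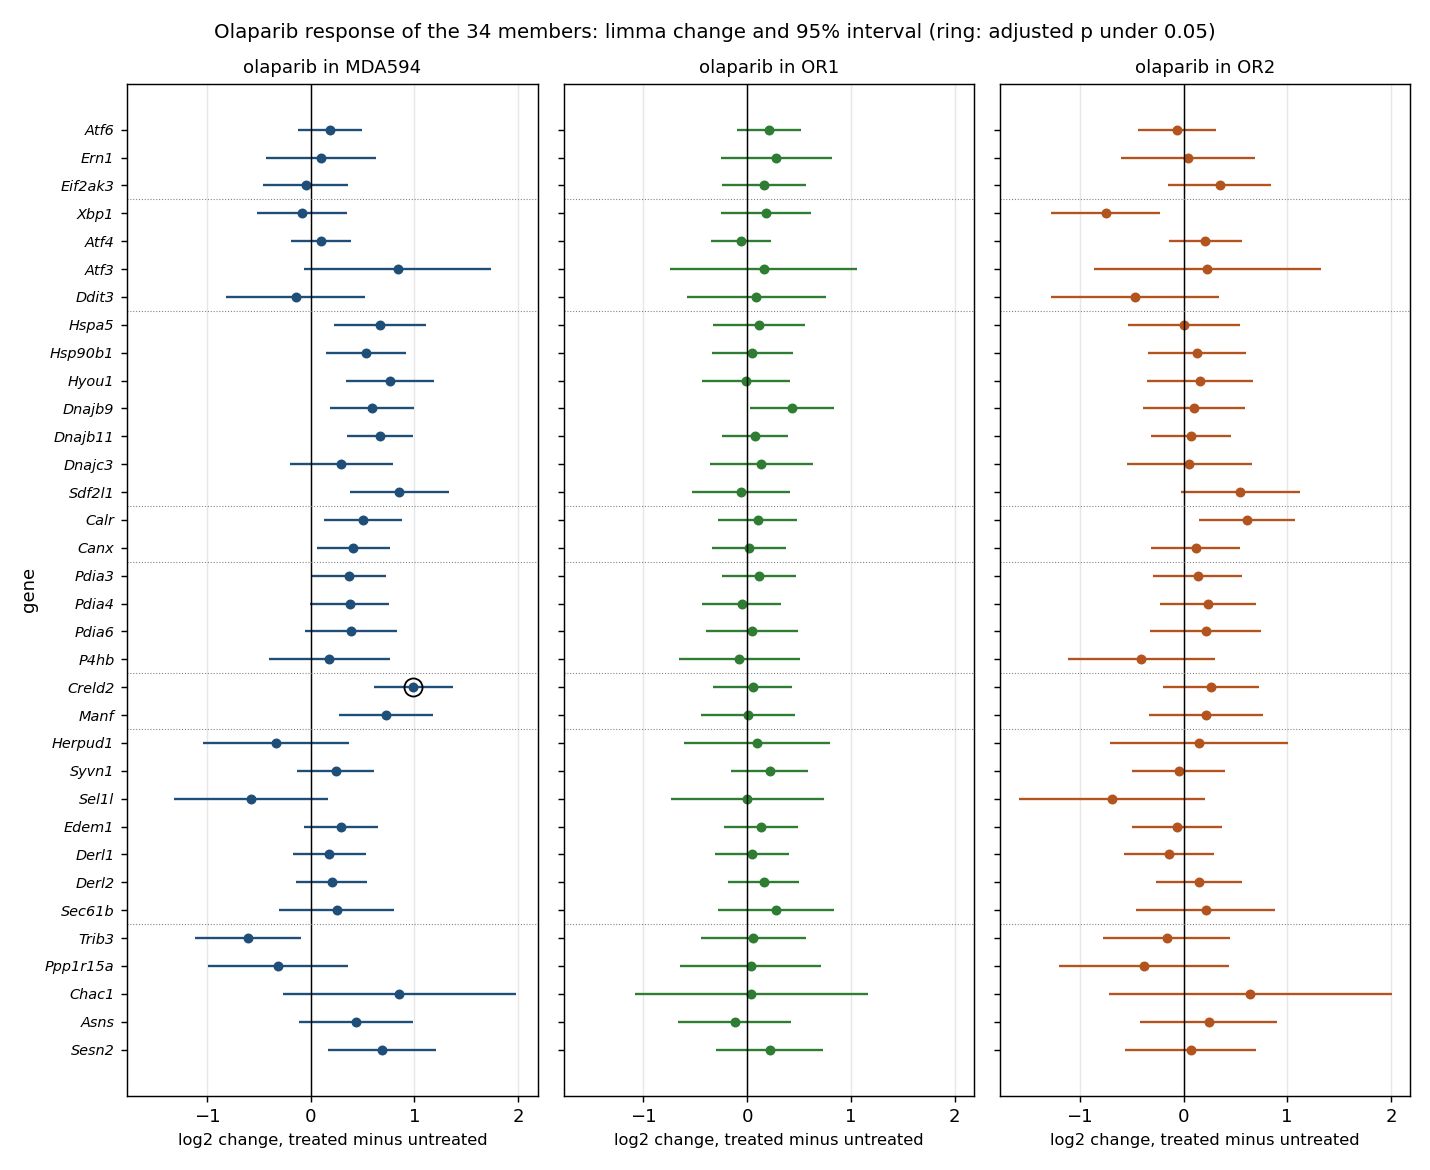
Fitted log2 change with olaparib of the 34 members in MDA594, OR1 and OR2, with 95% intervals; a ring marks an adjusted p under 0.05. The ring is on Creld2 in MDA594 (0.99), and the values in OR1 lie between -0.12 and 0.43.

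Over the 3 lines together, 0 members were called by limma, where 0.00612% of all genes were. Creld2 had 0.44 (± 0.11, SE, adjusted p = 0.127), Calr 0.41 and Sdf2l1 0.45, and the median of members was 0.18. At an unadjusted p under 0.05 there were 8 members higher and 0 lower, where 13.7% of all genes passed.

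Whether the lines responded differently was tested as the response of OR1 or OR2 less that of MDA594. By limma 0 members passed in either test, where 0% of all genes did. For OR1, 5 members were lower at an unadjusted p under 0.05, where 7.33% of all genes passed: Creld2 at -0.93 (± 0.26, SE, adjusted p = 0.672), Sdf2l1 at -0.92, Dnajb11 at -0.59, Hyou1 at -0.78 and Manf at -0.72. All 7 chaperones had a negative difference, with a median of -0.55. For OR2, Dnajb11 at -0.60 and Creld2 at -0.72 were lower at an unadjusted p under 0.05 (adjusted p = 0.765 for both), where 6.16% of all genes passed. A difference in response was thus not shown for any member at the adjusted threshold. In the same tests all 12 skeletal muscle genes had a negative difference (medians -6.86 for OR1 and -6.41 for OR2), and their part in the values was not tested. Both tests use the same MDA594 libraries and are not independent of the comparisons above.

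Without treatment the lines were compared next. In untreated OR2, Xbp1 was higher than in untreated MDA594, and it was the 1 member of 34 called (background 0.214%). The 2 OR2 libraries, at 8.50 and 8.41, lay far above the 4 of MDA594, which ran from 7.06 to 7.25 (1.31 ± 0.24, SE, 2.49-fold, adjusted p = 0.0351 by limma). All untreated OR1 libraries, at 7.15, 7.47 and 6.70, were below OR2 as well. Both OR2 libraries are of 1 host code, so the spread between OR2 hosts was not measured in this group. The treated OR2 libraries, with 3 host codes, ran from 7.57 to 7.86. Leaving out single libraries gave changes of 1.27 to 1.36, and the call was kept in 11 of 19 such fits, the largest adjusted p being 0.236 without the first untreated OR2 library. The call was also lost with the number in the titles as a term (1.38, adjusted p = 0.105), with libraries of a host code averaged (1.33, adjusted p = 0.0601), with the groups compared alone (1.32, adjusted p = 0.114) and with no mean trend (1.31, adjusted p = 0.0572).

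The 7 chaperones had differences of -0.17 (Sdf2l1) to 0.35 (Dnajb9), with 0.16 for Hspa5, and all overlapped. P4hb, which codes for protein disulfide isomerase itself, had 0.58 (± 0.33, SE, adjusted p = 0.596 by limma) and Sec61b -0.58 (± 0.31, SE, adjusted p = 0.556), both without overlap. The other 3 transcription factors also had groups that did not overlap: Ddit3 at 3.98 and 3.84 against 2.60 to 3.25 (0.96 ± 0.38, SE, adjusted p = 0.355), Atf3 at 3.88 and 3.55 against 2.20 to 2.86 (1.15), and Atf4 at 6.96 and 7.02 against 7.18 to 7.47 (-0.31). Calr was at 9.13 and 9.34 against 9.73 to 9.85 (-0.56 ± 0.21, SE, adjusted p = 0.343). In all, groups did not overlap for 5 members that were higher (background 12.6%) and 3 that were lower (background 12%), and the median change was 0.10. At an unadjusted p under 0.05 there were 3 members higher and 1 lower, where 10.6% of all genes passed. Beside this, 17 of 18 genes of hypoxia and glycolysis had a positive difference (median 0.74; 7.54 to 7.93 in OR2, 6.89 to 7.40 in MDA594), and 6 of 12 macrophage genes did (median -0.02). Of the 5 milk secretion genes 3 had a positive difference (median 0.79, highest 5.25; 3.62 and 5.33 in OR2, 2.34 to 2.80 in MDA594). Of 8 mammary tumour epithelium genes, 6 had a positive difference (median 0.43). Their mean log2 CPM was 7.20 and 6.75 in OR2 and ran from 5.97 to 6.61 in MDA594, without overlap. All 10 T cell genes had a negative difference (median -1.98; -2.75 to -1.68 in OR2, -2.18 to 1.57 in MDA594), and 11 of 12 skeletal muscle genes (median 1.47) and 10 of 11 fibroblast genes (median 0.63) a positive one. Their part in the values was not tested.

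In untreated OR1, 0 members differed from MDA594 by limma (background 0.11%), and 2 were lower at an unadjusted p under 0.05, where 13.6% of all genes passed. Those were Trib3 (-0.58 ± 0.24, SE, adjusted p = 0.323) and Sec61b, at 5.66, 6.06 and 6.10 against 6.34 to 6.90 (-0.58 ± 0.26, SE, adjusted p = 0.355). The value of Trib3 was -0.26 without the pair of untreated MDA594 libraries of 1 host code, and 0.37 once the number in the titles was a term. Groups did not overlap for 4 higher members, Ern1, Atf4, Atf3 and Ddit3 (background 10.4%), and 2 lower ones, Pdia3 and Sec61b (background 9.85%). For Atf4 they all but touched, at 7.4701 in the lowest OR1 library and 7.4697 in the highest of MDA594. Ddit3 read 3.72, 3.31 and 3.76 in OR1 (0.67), and Atf3 3.24, 3.73 and 3.39 (0.88). The chaperones were close to MDA594, from -0.23 to 0.28. All 12 macrophage genes (median -1.34), all 11 fibroblast genes (median -0.67) and all 10 T cell genes (median -0.83) had a negative difference here. All 12 skeletal muscle genes (median 3.88; -1.21 to 1.83 in OR1, -4.43 to -3.68 in MDA594) and 15 of 18 genes of hypoxia and glycolysis (median 0.22) had a positive one. Their part in the values was not tested.

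Under olaparib, all 7 chaperones had a negative difference in OR1 against MDA594, and in OR2 so did all but Dnajc3 (0.08). None of these passed the adjusted test by limma. In OR1, Creld2 was lower (-0.89 ± 0.18, SE, 0.541-fold, adjusted p = 0.0360 by limma), the 1 member of 34 called (background 0.545%). Its 4 treated OR1 libraries, at 4.83 to 5.31, were below the 3 of MDA594, at 5.78 to 6.11. Leaving out single libraries gave changes of -0.99 to -0.77, and the call was kept in 10 of 19 such fits, the largest adjusted p being 0.297 without the third treated MDA594 library. With the number in the titles as a term, the change was -0.73 (adjusted p = 0.339). Groups did not overlap for 13 members that were lower (background 15.9%) and 1, Herpud1, that was higher (background 16.2%). The 13 were 6 of the 7 chaperones, both lectins, Pdia3, Pdia4, Pdia6, Creld2 and Manf. At an unadjusted p under 0.05 there were 12 members lower and 1 higher, where 18% of all genes passed. Calr had -0.71 (± 0.18, SE, adjusted p = 0.0823) and Manf -0.72 (± 0.21, SE, adjusted p = 0.117). Ddit3 had 0.90 (± 0.32, SE, adjusted p = 0.167), with overlap through the third treated OR1 library at 2.76.

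In treated OR2, 0 members were called against treated MDA594 by limma (background 1.58%), and 1 was higher and 9 lower at an unadjusted p under 0.05, where 17.3% of all genes passed. Groups did not overlap for 12 lower members (background 11.1%) and 4 higher ones, Xbp1, Ddit3, Herpud1 and Ppp1r15a (background 12.8%). Creld2 had -0.62 (± 0.19, SE, adjusted p = 0.102), Dnajb11 -0.49 (± 0.16, SE, adjusted p = 0.121) and Xbp1 0.64 (± 0.21, SE, adjusted p = 0.130). Of the further pathway genes, Wars1, a tRNA synthetase and ATF4 target, was lower (-0.60 ± 0.13, SE, adjusted p = 0.0330) and Nupr1, a stress-induced nuclear protein, was higher (1.68 ± 0.39, SE, adjusted p = 0.0419). These comparisons share the treated MDA594 libraries with each other and with the olaparib comparison, so they do not count as separate evidence on the same genes. Macrophage genes differed beside these values: all 12 had a negative difference in treated OR1 (median -1.34) and 11 of 12 did in treated OR2 (median -0.94), with ranges of 4.09 to 5.39 in OR1, 4.14 to 6.29 in OR2 and 5.39 to 6.13 in MDA594. All 10 T cell genes (medians -1.18 in OR1 and -1.78 in OR2) and all 12 skeletal muscle genes (medians -2.52 and -4.78) had a negative difference in both, as did 10 of 11 fibroblast genes in OR1 (median -0.88) and 9 of 11 in OR2 (median -0.51). Genes of hypoxia and glycolysis had a positive difference for 16 of 18 in OR1 (median 0.75, 1 called by limma) and 15 of 18 in OR2 (median 0.53, 2 called). The mean log2 CPM of 8 mammary tumour epithelium genes ran from 6.81 to 7.49 in treated OR2. It ran from 5.95 to 7.09 in treated OR1 and from 6.33 to 6.75 in treated MDA594. The part of all these genes in the chaperone and Xbp1 values was not tested.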

How the data were processed

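The authors deposited log2 CPM per gene and library. Per the submitters' processing notes, STAR 2.7.10a, RSEM 1.3.1, limma and the mouse build GRCm39 were used; the annotation and gene filter are not given in the sources used here. Per the labels' protocols, RNA came from RNeasy columns and libraries from a stranded mRNA kit. Reads were recovered from the antilogs by taking the lowest value of each library as no reads with a constant of 0.5 added. The recovered values were whole reads (tolerance 0.01 reads) for 100% of values under 1000 reads in the lowest library. All read counts and depths given here rest on this recovery, and depths are sums over the genes of the expression table.

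Groups came from titles; the library with conflicting labels (1 of 20) was left out. Genes over 0 log2 CPM in at least 2 libraries were kept (16330 of 16411; 81 removed). In R 4.3.3, limma 3.58.1 was fitted to 6 group means over 19 libraries, with a correlation of 0.404 between libraries of a host code, 13 residual degrees of freedom and a mean trend. The correlation weights libraries, so a fitted change can differ from the difference of group means. Tests were two-sided and adjusted by Benjamini-Hochberg over all genes at 0.05. The p-values reflect variation among these libraries, of which several share a host. Depth was 36.8 to 118 M reads per library; intervals cover the spread between libraries and the counting error within them.

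Members, gene lists and tests were chosen with earlier results of these data known. Named genes were the members with the smallest p per comparison and a preset set (Hspa5, Creld2, Xbp1, Atf4, Ddit3, Trib3); other members are named with their role. The fit was tested on simulated data. Alternatives changed filter, pseudocount, scaling, correlation, batch terms and libraries. Promoter windows and coordinates are RefSeq's on GRCm38.p6, not the files' build, and were matched by symbol.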

Additional observations from a re-analysis of the deposited data

Results flagged for a closer look

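Among 68 sets of 4 libraries (34 members in untreated MDA594 and in treated OR1), 2 held a library far from the other 3, by Dixon's gap test at 95%. Chance flags about 1 in 20 such sets. Hyou1 read 8.3841 in the first untreated MDA594 library and 8.2125 to 8.2337 in the other 3; all 4 were below the treated MDA594 libraries. Edem1 read 6.7584 in the treated OR1 library 4 and 6.3961 to 6.4298 in the other 3.

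The library with conflicting labels (untreated MDA594 by its title and the table header, treated by its treatment label) entered no comparison. In it, 17 of the 34 members (50%) were above each untreated MDA594 library, where 21.1% of all genes were, and 2 members (5.88%) were below each, where 22% of all genes were. Within the range of the treated MDA594 libraries were 17 members (50%), where 48.8% of all genes were. Creld2 read 5.91, Hspa5 10.97 and Sdf2l1 5.29 there. If it was untreated, the treated and untreated MDA594 groups would overlap for 14 of the 16 members for which they do not otherwise.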

How the results depend on the processing

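Counts of members called depended on the model. For olaparib in MDA594 (1 called), the count was 8 without a correlation between libraries of a host code, 9 with the number in the titles as a term and 19 in the larger library series alone. It was 0 with libraries of a host code averaged, with the groups compared alone, with no mean trend, with robust moderation, with voom and without untreated MDA594 3 and 4 (chosen after the data were seen), and 0 to 4 when single libraries were left out. There were 4 without untreated MDA594 1, 2 without treated OR2 1 or 3, 1 without untreated MDA594 3 or treated OR2 2, and 0 without any other. Over the 3 lines (0 called) it was 3 without the correlation, 5 with the title number and 9 in the larger series, and 0 to 1 with single libraries left out (1 without treated OR2 1). For untreated OR1 (0) it was 5 in the larger series. For untreated OR2 (1) it was 9 in the larger series and 0 with averaging, the title number, the groups compared alone or no mean trend. With single libraries left out it was 0 to 1, being 0 without untreated MDA594 2, treated MDA594 3, untreated OR1 1, any treated OR1 library or untreated OR2 1. For treated OR1 (1) it was 8 without the correlation, 12 in the larger series, 14 with the groups compared alone, 4 without untreated MDA594 3 and 4, and 0 with averaging, the title number or voom. With single libraries left out it was 0 to 3, being 0 without any treated MDA594 library, untreated OR1 3, treated OR1 1, 2 or 4, or either untreated OR2 library, 2 without untreated MDA594 4 or treated OR2 1 or 3, and 3 without treated OR1 3. For treated OR2 (0) it was 2 without the correlation, 1 with the title number and 4 in the larger series. For the difference in response it was 2 (OR1) and 1 (OR2) with the title number and 2 (both) in the larger series. The estimated correlation was -0.13 with the title number and -0.30 in the larger series, and all genes called in MDA594 were then 3123 and 5220. The cause was not tested.

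Apart from Trib3 in untreated OR1, the changes that turned sign were at most 0.16 in size. For olaparib in MDA594, Ddit3 (-0.14) was 0.24 with the title number and 0.18 in the larger series, and Xbp1 (-0.08) ran from -0.18 to 0.0345 with single libraries left out. For untreated OR1, Trib3 (-0.58) was 0.37 with the title number. Hspa5 (-0.08) was 0.21 with quantile normalization and 0.0818 without untreated MDA594 3 and 4, and ran from -0.216 to 0.075 with single libraries left out. Creld2 (0.05) was -0.0317 with the title number and -0.15 in the larger series, and ran from -0.0845 to 0.162. Xbp1 (-0.09) ran from -0.22 to 0.17. For untreated OR2, Hspa5 (0.16) was -0.048 in the larger series and ran from -0.0454 to 0.376, and Creld2 (0.10) was -0.0355 and ran from -0.0243 to 0.239. The cause was not tested. Of the other values of named members, 1359 kept direction and side of the threshold, 43 passed it and 44 no longer did. Leaving the filter out, the stricter filter, log2 of CPM plus 1, quantile normalization, TMM scaling of recovered reads and the library series as a term changed no count of members called. The TMM values differed from the deposited ones by a median of 0.0013 on the log2 scale in each library, so the scaling was the deposited one. The count models edgeR and DESeq2 were not run on the recovered reads, and voom was run on them in their place. Groups share 6 numbers in their titles, and the fit with that number as a term, given above, is the blocked one. The deviations from the group means correlated between groups at 0.0187 to 0.30 for the 5 numbers where this could be computed, and 2 of them were over 0.1, so the libraries were taken to share a number and were not treated as pairs.

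Host codes were not spelled out in the labels. The untreated OR2 group has 1 code and the treated MDA594 group 2, so the spread between hosts rests on few animals. Depth does not limit most members, but Chac1, at 32 reads in its lowest library, carries more counting error.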
